A study of Mus musculus with 6 samples.

Results

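The p53 death and survival targets are 10 genes, chosen by their symbols among the 23284 genes of the count tables, and each of the 10 was found. They are Bax, Bbc3, Pmaip1, Fas, Eda2r, Phlda3, Aen, Perp, Zmat3 and Trp53inp1. Their RNA was measured by sequencing whole liver of 8-week-old C57BL6/J mice, in 3 libraries from Trim24 -/- mice (KO1 to KO3) and 3 from wild type mice (WT1 to WT3). Trim24 encodes a nuclear receptor cofactor with ubiquitin ligase activity, and the series' title sets the mice in a study of fat accumulation and carcinoma of the liver. The knockout is given as homozygous, and which part of the gene was removed, the sex of the mice and whether each library came from 1 mouse are not stated in the labels. The p-values below therefore measure the spread between these libraries, which may be technical in part.

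p53 is a transcription factor that damage and other stress stabilise, and the TRIM24 protein is known as a ubiquitin ligase that can mark it for degradation. Its targets fall into genes that stop the cell cycle, repair DNA or feed back on p53, and genes that push a cell towards death or restrain that push. The second kind acts at several levels: BCL2 family proteins open the mitochondrial outer membrane, receptors at the cell surface pass on death signals, and other products cut nucleic acids, bind RNA or hold back survival kinases.

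The libraries held 1607276, 1754269 and 2872421 reads in genes in KO1, KO2 and KO3, and 1495583, 1597540 and 1732309 in WT1, WT2 and WT3. This was 4.74% to 6.69% of the counted reads in the knockout libraries and 4.22% to 5.4% in the wild type ones, so low members rest on few reads. Levels are given as CPM, which are each gene's counts as parts per 1000000 of the reads in tested genes after TMM scaling. A count of 0 allows up to 3 counts, or 1.04 to 1.86 CPM in the knockout and 1.78 to 2.10 CPM in the wild type libraries, counting error only. Trim24 had 3, 2 and 2 counts in the knockout libraries and 31, 45 and 44 in the wild type ones and fell by 4.46 on the log2 scale (edgeR adjusted p = 2.1e-05), as the genotype labels have it. The hepatocyte markers Alb, Apoa1, Ttr and 7 others summed to 93812 to 122777 CPM in the knockout and 132752 to 144557 CPM in the wild type libraries, with 1 of the 10 called lower. The Y-linked gene Ddx3y had 326, 452 and 547 counts in the knockout and 245, 292 and 250 in the wild type libraries, and Xist, which is transcribed from the inactive X chromosome, had 73, 21 and 64 counts in the knockout and 43, 30 and 22 in the wild type libraries.

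Of the 10 genes, 3 rose in the knockout and none fell. They were Eda2r, Phlda3 and Aen, and each was higher in 3 of 3 knockout libraries than in every wild type library. Calls rest on edgeR's quasi-likelihood test, with p adjusted by Benjamini and Hochberg's method over the 9180 genes that had enough reads and a threshold of 0.05, which called 3.08% of the tested genes higher and 2.65% lower. No member was called lower by edgeR, DESeq2 or limma-voom, and at an unadjusted p under 0.05 edgeR had 1, Perp. The other 7 genes split into 4 that were tested and not called (Fas, Perp, Zmat3 and Trp53inp1) and 3 with too few reads to be tested (Bax, Bbc3 and Pmaip1). Eda2r and Phlda3 had at most 2 reads in any wild type library and entered the test through their knockout reads, so the share of calls among the 7 tested genes is not read as support.

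**Figure D1:**
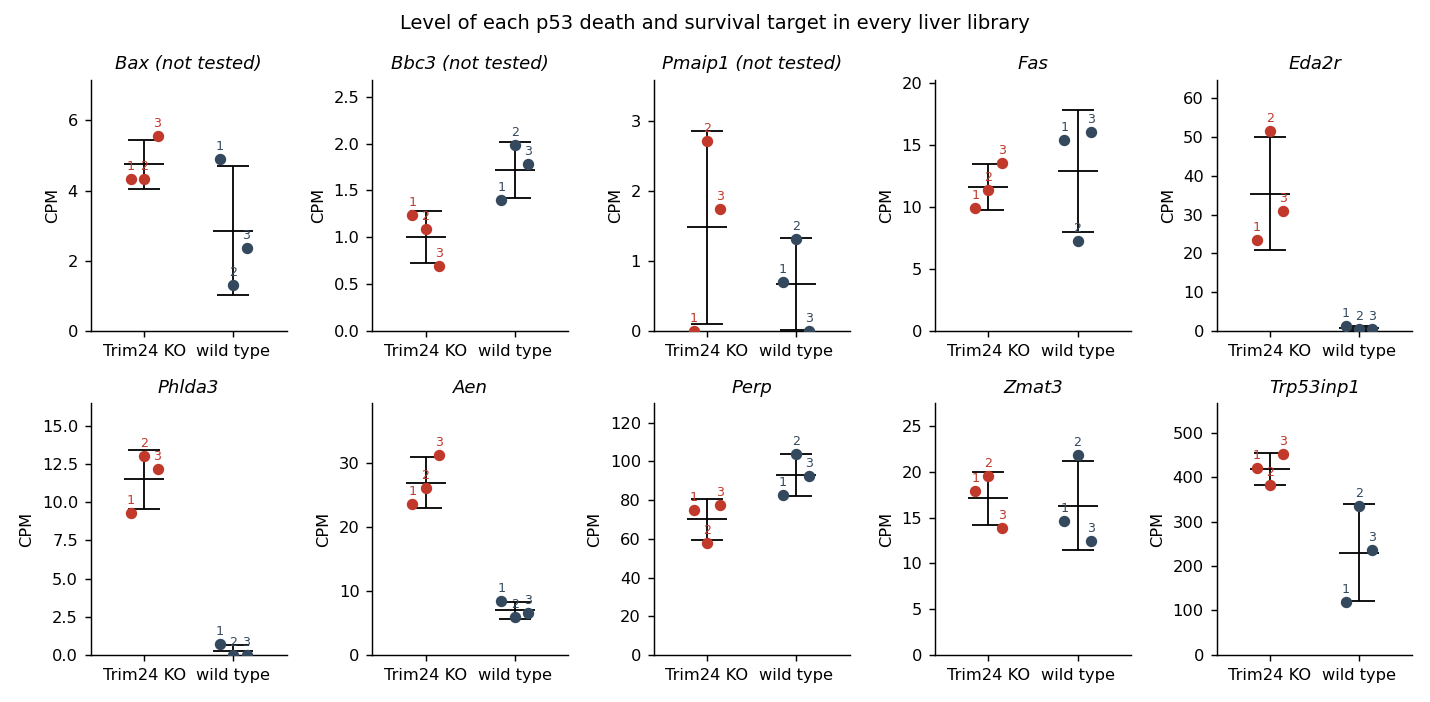
Level of each of the 10 genes in CPM (linear axes from 0) in the 3 Trim24 KO libraries (red, left) and the 3 wild type libraries (dark, right), numbered by replicate, with mean and SD as bars. Eda2r, Phlda3 and Aen are separated by genotype, Trp53inp1 and Perp are separated by narrower gaps, and Bax, Bbc3 and Pmaip1 lie near the level of a few reads.

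Among the receptors, Eda2r changed and Fas was not called. Eda2r (XEDAR) is a receptor of the TNF receptor superfamily that binds the A2 form of ectodysplasin, and it is carried on the X chromosome at chrX:97333840-97377216, minus strand, in GENCODE M21 on GRCm38. It had 38, 95 and 89 counts in KO1, KO2 and KO3 and 2, 1 and 1 counts in WT1, WT2 and WT3. Per library the level was 23.5, 51.6 and 31.0 CPM in the knockout and 1.4, 0.661 and 0.594 CPM in the wild type libraries, so the lowest knockout library lay far above the highest wild type one and KO2 was the highest of all. The mean was 35.4 ± 14.5 CPM in knockout and 0.884 ± 0.446 CPM in wild type (SD, n = 3 each). The fitted log2 fold change was 5.24 (SE 0.50, 95% interval 4.17 to 6.32, edgeR adjusted p = 4.2e-05). The ratio of the summed counts was 40.6, with an exact 95% counting interval of 15.6 to 150.2, wider than the fitted interval on the same scale.

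Fas, the receptor for Fas ligand, is the textbook death receptor of hepatocytes. It stood at 9.91, 11.4 and 13.6 CPM in KO1, KO2 and KO3 and at 15.4, 7.27 and 16.0 CPM in WT1, WT2 and WT3. The knockout libraries lay inside the range of the wild type ones. The log2 fold change was -0.13 with a 95% interval of -0.82 to 0.56 (edgeR adjusted p = 0.87), and its sign turned to 0.06 without WT3. The ligand genes of both receptors had few reads, and they are named here after their values were seen. Eda, the ectodysplasin gene, had 3, 2 and 2 counts in the knockout and 8, 3 and 3 in the wild type libraries, and Fasl had no knockout read and 3 reads in WT3 alone of the wild type libraries.

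Phlda3, the brake on survival signalling among the 10 genes, rose by a fitted change close to that of Eda2r, and which of these 2 was larger differed between alternatives (with limma-voom, 4.66 for Phlda3 and 4.87 for Eda2r). Its product is little more than a PH domain that competes with the kinase AKT for membrane lipids and so restrains AKT. The gene lies at chr1:135766119-135769136, plus strand. It had 15, 24 and 35 counts in KO1, KO2 and KO3, and 1, 0 and 0 counts in WT1, WT2 and WT3. These were 9.29, 13.0 and 12.2 CPM in the knockout and 0.699, 0 and 0 CPM in the wild type libraries, and the knockout libraries stayed within a narrow band. Against 1 wild type read the ratio of summed counts was 54.1, and its 95% counting interval of 9.41 to 2165 shows how loosely the size is fixed. The edgeR log2 fold change was 5.36 (SE 0.68, adjusted p = 0.00048). Without WT1 no wild type read was left, and the knockout level of Phlda3 was 12.5-fold that of 3 counts over the wild type group. That figure leaves out the counting error of the knockout reads and the spread between libraries. The edgeR adjusted p without WT1 was 0.0045, and the adjusted p lay between 4.0e-11 and 0.0063 over all alternatives.

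Aen rose by a smaller factor with more reads behind it. It encodes an exonuclease of the nucleus and nucleolus that p53 induces and that digests nucleic acids during apoptosis, and it lies at chr7:78895854-78911209, plus strand. Its counts were 38, 48 and 90 in KO1, KO2 and KO3, and 12, 9 and 11 in WT1, WT2 and WT3. It stood at 23.5, 26.1 and 31.3 CPM in the knockout and at 8.38, 5.95 and 6.53 CPM in the wild type libraries, with both groups tight and well apart. The log2 fold change was 1.97 (SE 0.27, 95% interval 1.39 to 2.54, edgeR adjusted p = 0.00078).

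**Figure D2:**
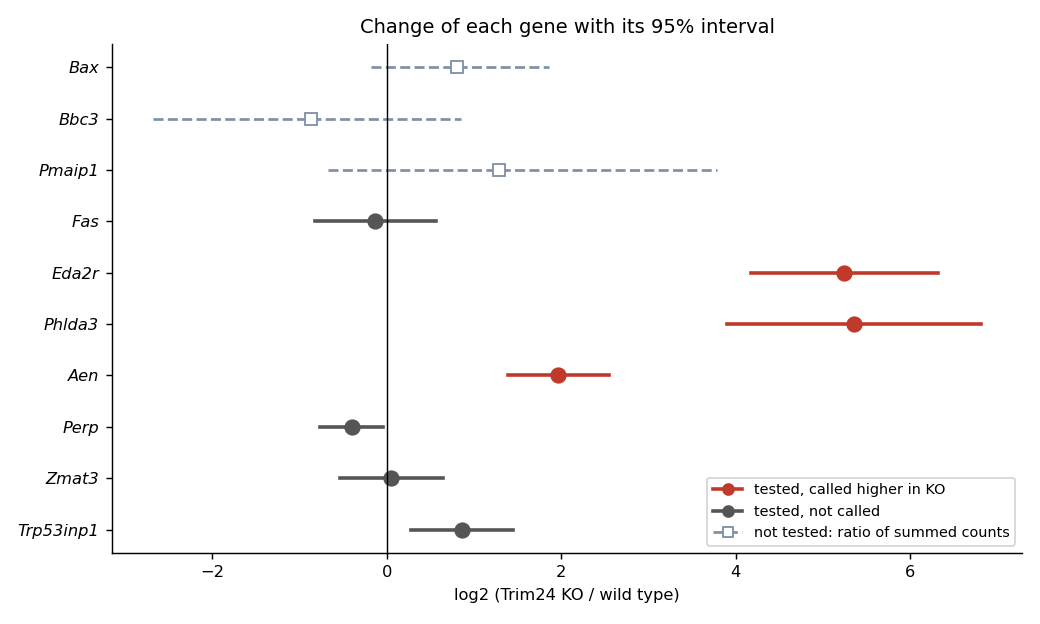
Change of each gene as log2 of knockout over wild type (horizontal axis), with circles and solid lines for the edgeR estimate and its unadjusted 95% interval, and open squares with dashed lines for the ratio of summed counts and its 95% counting interval where a gene was not tested. The fitted intervals of Eda2r and Phlda3 lie above 3.9 in log2 units, and that of Aen between 1.39 and 2.54. For Eda2r and Phlda3 the counting intervals of the ratio, 15.6 to 150.2 and 9.41 to 2165, are wider than the fitted ones and reach lower.

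The proximal promoters of the 3 genes that rose are shown because p53 acts through DNA elements, and that of Bax is shown for contrast as a gene with an exact match that could not be tested. Each window runs from 250 bases before to 50 bases after a RefSeq start site on GRCm38.p6, 5′ to 3′ on the gene's strand. Windows were present for 6 of the 10 genes, 9 windows in all, and were not matched for Pmaip1, Perp, Zmat3 and Trp53inp1. Capitals mark each match to the p53 response element decamer, the 10-base unit that a p53 response element holds as a pair, with up to 1 mismatch outside its CNNG core, whose middle bases had to be A or T. The decamer reads the same on both strands, so a match counts for both. The windows are chr7:78895677-78895976 for Aen (plus strand), chrX:97377160-97377459 for Eda2r (minus strand), chr1:135765835-135766134 for Phlda3 (plus strand) and chr7:45466849-45467148 for Bax (minus strand).
Aen: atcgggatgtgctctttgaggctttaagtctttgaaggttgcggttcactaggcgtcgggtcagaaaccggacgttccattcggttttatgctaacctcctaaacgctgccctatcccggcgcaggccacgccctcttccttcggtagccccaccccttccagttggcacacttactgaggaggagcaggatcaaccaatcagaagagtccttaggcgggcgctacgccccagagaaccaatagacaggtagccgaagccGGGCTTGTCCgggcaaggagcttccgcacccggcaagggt
Eda2r: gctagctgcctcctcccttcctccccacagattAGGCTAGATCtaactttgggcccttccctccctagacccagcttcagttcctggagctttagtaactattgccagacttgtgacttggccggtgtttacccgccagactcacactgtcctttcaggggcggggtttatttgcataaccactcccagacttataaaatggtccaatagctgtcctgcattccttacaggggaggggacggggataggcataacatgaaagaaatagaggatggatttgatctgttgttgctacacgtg
Phlda3: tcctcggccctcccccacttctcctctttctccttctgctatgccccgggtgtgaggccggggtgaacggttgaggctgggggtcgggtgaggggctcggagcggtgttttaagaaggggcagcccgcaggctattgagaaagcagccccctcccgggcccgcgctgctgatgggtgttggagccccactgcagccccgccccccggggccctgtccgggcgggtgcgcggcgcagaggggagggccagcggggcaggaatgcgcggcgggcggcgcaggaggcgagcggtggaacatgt
Bax: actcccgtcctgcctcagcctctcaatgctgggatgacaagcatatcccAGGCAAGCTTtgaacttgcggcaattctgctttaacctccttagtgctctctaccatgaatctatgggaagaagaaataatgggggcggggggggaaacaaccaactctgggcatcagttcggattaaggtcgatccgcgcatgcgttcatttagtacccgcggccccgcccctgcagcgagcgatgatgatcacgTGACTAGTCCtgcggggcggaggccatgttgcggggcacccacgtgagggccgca

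Aen held the exact decamer GGGCTTGTCC from base 11 after the start site shown, and the same copy lies 121 bases before its other annotated start. Bax held the exact decamer AGGCAAGCTT 201 bases before its start and TGACTAGTCC, with 1 mismatch, 5 bases before it. Eda2r held AGGCTAGATC with 1 mismatch, 217 bases before its start, and 1 of the Bbc3 windows held CGACTTGTCC with 1 mismatch, 87 bases before its start. No match was found in the windows of Phlda3 or Fas. In all, 3 of the 9 windows held an exact decamer, the overlapping Aen windows sharing 1 copy, and 5 held one with up to 1 mismatch. Of 32851 promoter windows of the same length, 8.36% held an exact decamer and 39.6% held one with up to 1 mismatch, so a match of the looser kind is common. These matches describe letters in the windows and not binding, and elements outside the windows were not searched.

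The mitochondrial effectors had the fewest reads of the 10 genes apart from the wild type reads of Eda2r and Phlda3, and none was tested. Bax, the protein that forms pores in the mitochondrial outer membrane, had 7, 8 and 16 counts in KO1, KO2 and KO3 and 7, 2 and 4 counts in WT1, WT2 and WT3. In CPM the groups overlapped, at 4.33, 4.34 and 5.57 in the knockout and 4.89, 1.32 and 2.38 in the wild type libraries. The ratio of summed counts was 1.74 with a 95% counting interval of 0.886 to 3.63. Bax shares 192 exon bases with the protein-coding gene Gm45808 on the same strand, and the other 9 members share exon bases with no other gene in GENCODE M21.

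Bbc3 (PUMA) and Pmaip1 (Noxa) encode BH3-only proteins, which set off BAX and its relative BAK. Bbc3 had 2, 2 and 2 counts in the knockout and 2, 3 and 3 in the wild type libraries, a ratio of 0.548 (0.157 to 1.80), with every library at or under 3 counts. Pmaip1 had 0, 5 and 5 counts in KO1, KO2 and KO3 and 1, 2 and 0 counts in WT1, WT2 and WT3, a ratio of 2.44 (0.627 to 13.8). For these 3 genes a change of up to 3.63-fold, 1.80-fold and 13.8-fold upward lies inside the counting interval, which covers counting error only. Their summed knockout counts of 31, 6 and 10 were too few for the test. Phlda3, with 74, entered it through its knockout reads.

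Trp53inp1 was the most abundant of the 10 genes in the knockout and lay just outside the threshold. It encodes a stress protein that partners with p53 and also takes part in autophagy. Its level was 420, 383 and 453 CPM in KO1, KO2 and KO3 and 118, 336 and 235 CPM in WT1, WT2 and WT3. The groups did not overlap, and the wild type libraries spread widely while the knockout ones stayed close together. The log2 fold change was 0.86 (SE 0.27, edgeR adjusted p = 0.082). It was called higher without WT2, the highest wild type library, at 1.23 (edgeR adjusted p = 0.024), and was not called without WT1, the lowest, at 0.55 (edgeR adjusted p = 0.17). It was also called with DESeq2 (adjusted p = 0.029) and in 3 other alternatives, with adjusted p from 0.00011 to 0.28 over all of them.

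Perp, a membrane protein of desmosomes that contributes to p53-dependent death, was not called, with values on the lower side. It stood at 74.9, 58.1 and 77.6 CPM in KO1, KO2 and KO3 and at 82.4, 104 and 92.6 CPM in WT1, WT2 and WT3, with every knockout library below every wild type one. The log2 fold change of -0.40 (SE 0.17) had an unadjusted p of 0.030 and an edgeR adjusted p of 0.19, so it was not called. Zmat3, a zinc finger protein that binds RNA, stood at 18, 19.5 and 13.9 CPM in the knockout and at 14.7, 21.8 and 12.5 CPM in the wild type libraries, fully overlapping. Its log2 fold change was 0.05 with a 95% interval of -0.54 to 0.65 (edgeR adjusted p = 0.95). Among the 7 tested genes the groups were apart upward for 4 and downward for 1, against 12.4% and 12.6% of all tested genes. Eda2r and Phlda3 are among the 4 and entered the test through their knockout reads, so this share is not read as support. Bbc3, which was not tested, was also apart downward, on few reads.

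**Figure D3:**
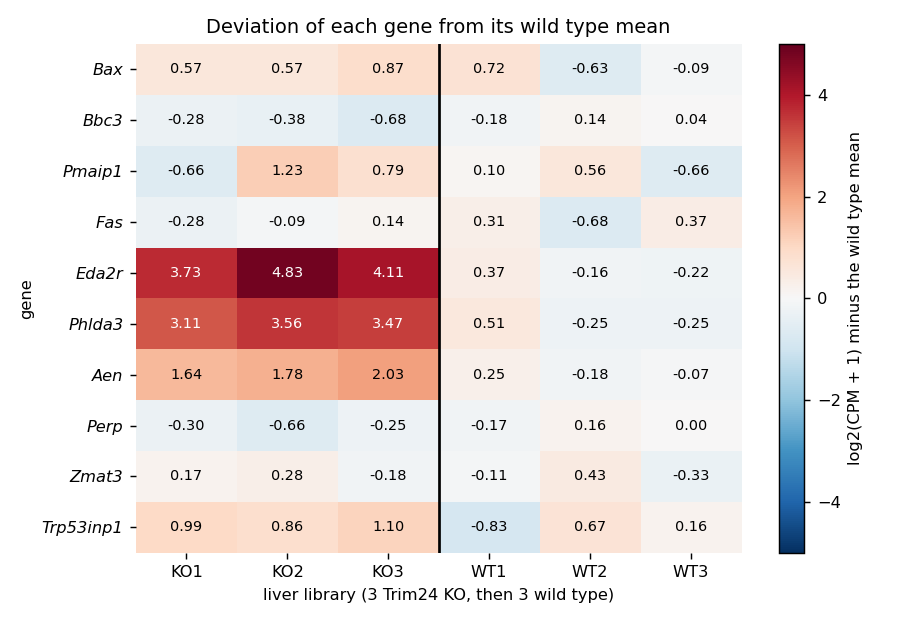
Deviation of each gene (rows) in each library (columns, knockout left of the line) from its wild type mean, in log2(CPM + 1), with the value in each cell. Eda2r ranges from 3.73 to 4.83 over the knockout libraries and Phlda3 from 3.11 to 3.56, while the wild type spread of Trp53inp1 runs from -0.83 in WT1 to 0.67 in WT2.

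The genes did not share one ranking of the knockout libraries. KO2 was the highest knockout library for Eda2r and Phlda3, and KO3 was the highest for Aen and Trp53inp1. KO1 was the lowest for Eda2r, Phlda3 and Aen, and still lay above every wild type library for each. Per kilobase of annotated exon, levels of different genes can be set side by side only roughly, since the annotation behind the counts is not given. The knockout order was Trp53inp1 (64.6 ± 5.4 CPM per kb), Perp (36.0 ± 5.4), Phlda3 (7.37 ± 1.26), Eda2r (6.0 ± 2.5), Fas (5.64 ± 0.89), Aen (4.65 ± 0.68), Bax (3.01 ± 0.45), Zmat3 (1.5 ± 0.25), Pmaip1 (0.543 ± 0.503) and Bbc3 (0.474 ± 0.132; SD, n = 3 each). The libraries of neighbours overlapped from Phlda3 down to Aen, and for Pmaip1 and Bbc3. In wild type Perp led with 47.6 ± 5.5 CPM per kb, overlapping Trp53inp1 with 35.5 ± 16.8, and Eda2r (0.150 ± 0.076) and Phlda3 (0.149 ± 0.259) stood at the low end with Pmaip1 (0.247 ± 0.242), the 3 overlapping on 1 to 4 reads each over the wild type libraries.

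Markers of other cells also differed between the libraries. The 26 pancreatic acinar markers, of which Prss1 and Amy2a5 were at 0 in every library, summed to 1119, 15.2 and 723 CPM in KO1, KO2 and KO3 and to 40.5, 15.9 and 12.5 CPM in WT1, WT2 and WT3, so they were high in KO1 and KO3 and close to WT2 in KO2. Of these 26 genes 1 was tested, Cela1, and it was called higher with overlapping groups (log2 fold change 1.78, edgeR adjusted p = 0.046). That call was lost with DESeq2 (0.16), limma-voom (0.20), KO2 alone (0.91) and without any library other than KO2 (adjusted p from 0.098 to 0.16). In a fit that kept KO2 alone of the knockout libraries and assumes that it varies like the wild type ones, the log2 fold changes were 5.77 for Eda2r, 5.48 for Phlda3 and 1.90 for Aen (edgeR adjusted p = 5.3e-06, 0.0044 and 0.0059). Over all alternatives the adjusted p ran from 1.0e-29 to 0.0016 for Eda2r and from 3.2e-08 to 0.0077 for Aen. Of 15 Kupffer cell and macrophage markers 14 were tested and 3 rose, and the 15 summed to 396, 766 and 739 CPM in the knockout and 245, 437 and 339 CPM in the wild type libraries. The 11 T and NK cell markers summed to 13.0, 6.51 and 5.91 CPM in the knockout and 4.19, 1.98 and 4.75 CPM in the wild type libraries, and none of these genes had enough reads to be tested. The 7 B cell markers, none tested, summed to 1.86, 5.97 and 7.65 CPM in the knockout and 6.99, 7.94 and 6.53 CPM in the wild type libraries. For 10 stellate cell markers, of which 7 were tested and 2 rose, the sums were 646, 751 and 727 CPM in the knockout and 488, 492 and 525 CPM in the wild type libraries. For 10 endothelial markers, of which 1 rose and 2 fell, they were 471, 423 and 536 CPM in the knockout and 539, 548 and 562 CPM in the wild type libraries. For 8 cholangiocyte markers, of which 3 were tested and none called, they were 45.8, 72.2 and 62.6 CPM in the knockout and 48.9, 50.3 and 36.2 CPM in the wild type libraries. The part of these other cell types in the changes was not tested, and in whole liver more cells of a type and more RNA per cell cannot be told apart.

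The next comparison asked whether other p53 targets changed beside the death and survival genes. Of 27 arrest, repair and feedback targets in the files 19 were tested, and 7 rose and none fell in edgeR, DESeq2 or limma-voom. The rises were 36.8% of the tested targets, where edgeR called 3.08% of all tested genes higher and 2.65% lower. At an unadjusted p under 0.05 edgeR had 10 targets higher and 1 lower, Sesn1. Their median log2 fold change was 0.60 against 0.01 over all tested genes. This list was chosen with results of these libraries known, so it is no independent evidence. Ccng1, which encodes cyclin G1, had 261 ± 24 CPM in knockout and 66.4 ± 2.1 CPM in wild type (SD, n = 3 each; log2 fold change 1.97, edgeR adjusted p = 9.6e-06), the same fitted change as Aen. Plk2, a kinase of the stress response, had 46.4, 42.9 and 45.2 CPM in the knockout and 5.59, 7.94 and 7.13 CPM in the wild type libraries (2.69, edgeR adjusted p = 2.3e-05). Cdkn1a, the p21 inhibitor of cyclin-dependent kinases, had 52.0, 84.1 and 59.8 CPM in the knockout and 8.38, 21.2 and 4.16 CPM in the wild type libraries (2.55, edgeR adjusted p = 0.0013, and 3.39 without WT2, where it is 0.00032), and shares 273 exon bases with AC167363.2 on the opposite strand. Ephx1, an epoxide hydrolase of drug metabolism, had 339 ± 36 CPM in knockout and 179 ± 16 CPM in wild type (0.92, edgeR adjusted p = 0.0035), and shares 72 exon bases with the pseudogene Gm36961 on the same strand. The other rises, named to account for the count, were Btg2, Polk and Mdm2. Eda2r and Phlda3 had larger fitted changes than any of the 19, whereas Aen lay below Plk2 and Cdkn1a. The arrest targets that were not tested have no fitted change and stand outside this ranking, and some of them had knockout reads and no wild type read.

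The RNA of p53 itself was not called, and p53 protein was not measured. Trp53 is named here after its values were seen. It had 7.43, 8.68 and 7.31 CPM in the knockout and 9.08, 3.31 and 6.53 CPM in the wild type libraries. The log2 fold change was 0.30 with a 95% interval of -0.52 to 1.13 (edgeR adjusted p = 0.71). Of 15 tested genes among p53 and its regulators 1 rose and 1 fell, with a median log2 fold change of 0.02. The gene that rose, Mdm2, is also among the arrest, repair and feedback targets, so its rise is counted in both lists. Mdm2, the ubiquitin ligase that p53 induces and that degrades p53, had 58.3 ± 9.7 CPM in knockout and 28.3 ± 6.1 CPM in wild type (log2 fold change 1.03, edgeR adjusted p = 0.011, and 0.061 without WT1 and 0.070 without WT3). Trp53inp2, a paralogue of Trp53inp1 that acts in autophagy, had 189, 176 and 185 CPM in the knockout and 253, 363 and 338 CPM in the wild type libraries. It fell by 0.79 on the log2 scale (edgeR adjusted p = 0.013), a call lost without KO2 (0.0501), WT2 (0.066) or WT3 (0.072) and with KO2 alone (0.058).

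The rest of the death machinery held 3 genes called higher and 1 called lower in its 3 lists, of 10, 17 and 10 tested genes. Over all tested genes 3.08% were called higher and 2.65% lower. Of 10 tested other BCL2 family genes 1 rose and 1 fell, and the median log2 fold change was -0.28. Bmf, a BH3-only gene like Bbc3 and Pmaip1, had 4.33, 1.63 and 2.09 CPM in the knockout and 9.08, 10.6 and 18.4 CPM in the wild type libraries (log2 fold change -2.30, edgeR adjusted p = 0.0084, and 0.083 without WT3). Bak1, which opens mitochondria as Bax does, had 14.2, 14.7 and 13.2 CPM in the knockout and 6.29, 6.61 and 5.34 CPM in the wild type libraries (1.2, edgeR adjusted p = 0.032). That call was lost with DESeq2 (0.11), limma-voom (0.051), KO2 alone (0.12) and without any library other than KO1 (adjusted p from 0.065 to 0.14), and Bak1 shares exon bases with Ggnbp1 on the opposite strand, whose reads cannot be told apart where the strand setting is not known.

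Of 17 tested caspase, apoptosome and inhibitor genes 1 rose and none fell in edgeR, DESeq2 or limma-voom (2 higher and 2 lower at an unadjusted p under 0.05), with a median of -0.02. Endog, a mitochondrial nuclease, had 40.3, 44.5 and 29.9 CPM in the knockout and 16.1, 15.9 and 18.4 CPM in the wild type libraries (log2 fold change 1.17, edgeR adjusted p = 0.0095), and shares exon bases with Spout1 on the opposite strand. Of 10 tested death receptor signalling genes 1 rose and none fell in edgeR, DESeq2 or limma-voom (3 higher and 0 lower at an unadjusted p under 0.05), with a median of 0.20. Tnfrsf1a, the main TNF receptor, had 58.8, 73.8 and 64.7 CPM in the knockout and 39.1, 43.0 and 43.9 CPM in the wild type libraries (0.65, edgeR adjusted p = 0.038). That call ended with DESeq2 (0.087) and without any library other than KO1 (adjusted p from 0.063 to 0.14).

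**Figure D4:**
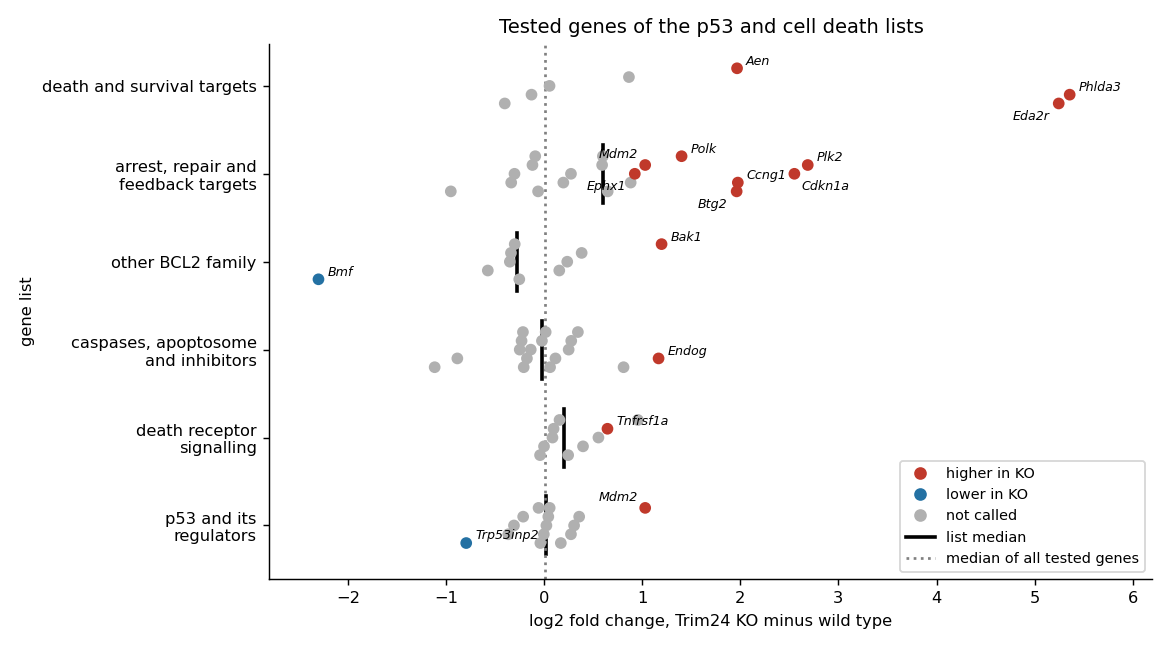
Log2 fold change (knockout minus wild type, horizontal axis) of each tested gene of the 6 lists (rows), red where called higher, blue where called lower and grey where not called, with black bars for the medians of the 5 other lists and a dotted line for the median of all tested genes. Eda2r and Phlda3 lie beyond 5, apart from every other gene drawn, and the 3 other lists of the death machinery hold 3 higher calls and 1 lower.

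The profile of the tested genes over the 6 libraries was compared with that of all genes of at least 10 CPM on average. The median deviation of the 7 tested genes from their wild type means stood at 0.99, 0.86 and 1.10 for KO1, KO2 and KO3 and at 0.25, -0.16 and -0.07 for WT1, WT2 and WT3, in log2(CPM + 1). The 5 genes nearest to it by root mean square difference over 6 libraries were Cyp2c67 (0.0942), Rgn (0.118), Gimap4 (0.129), Nop16 (0.138) and Ces2e (0.142). Cyp2c67, a cytochrome P450 of liver, had 1669, 1242 and 1593 CPM in the knockout and 922, 661 and 755 CPM in the wild type libraries, and Rgn, the calcium-binding protein regucalcin, had 2777, 2740 and 2572 CPM in the knockout and 1547, 1305 and 1397 CPM in the wild type libraries. In the knockout libraries that median is the value of Trp53inp1, so these neighbours are near in size to Trp53inp1 and not to Eda2r or Phlda3.

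**Figure D5:**
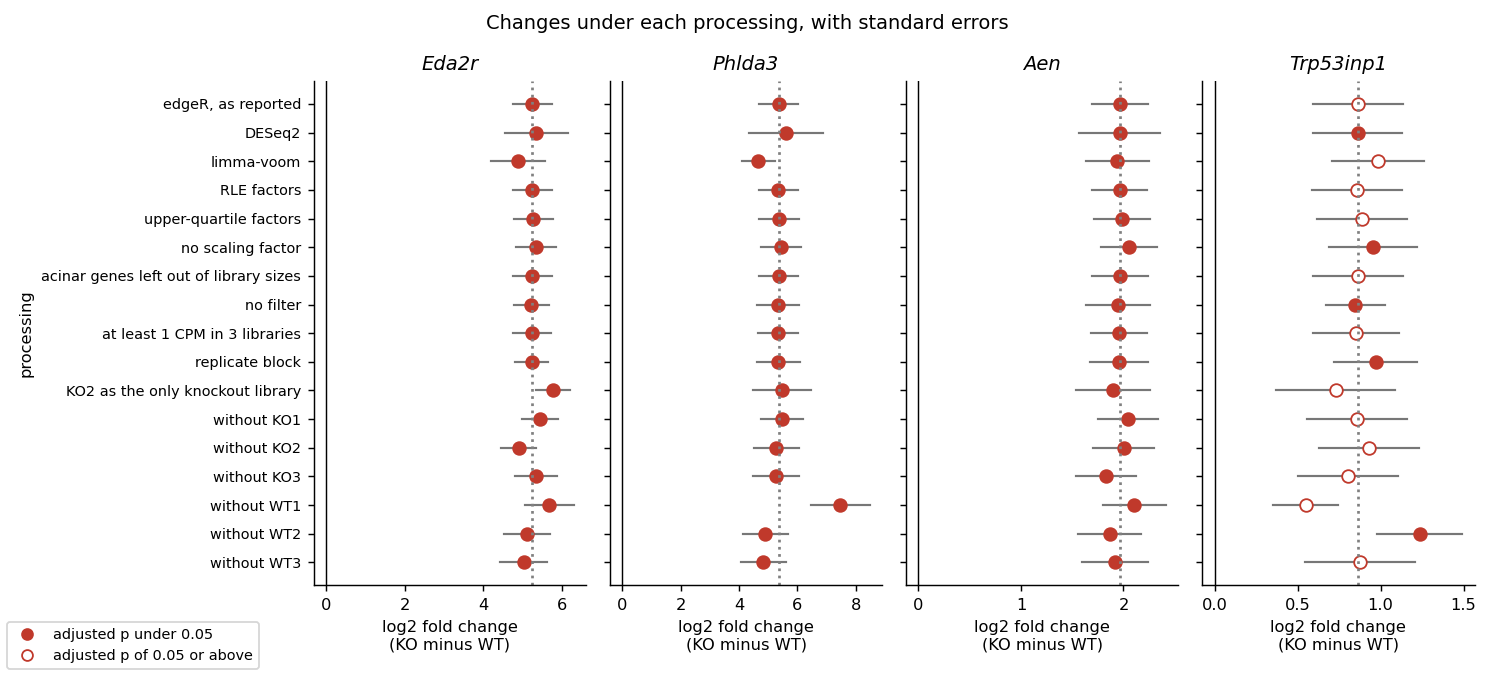
Log2 fold change (knockout minus wild type) with its standard error for Eda2r, Phlda3, Aen and Trp53inp1 (panels) under each processing (rows), filled where the adjusted p was under 0.05. Eda2r, Phlda3 and Aen stay filled in every row, and Trp53inp1 is filled in 5 of the 16 alternatives.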

How the data were processed

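Livers were homogenised and their total RNA isolated with TRIzol and sequenced on an Illumina HiSeq instrument, per the labels' protocols and design text. The deposited values are raw read counts per gene symbol, 1 file per library, and mm9, HTSeq, edgeR and TopHat 1.4.1 are named, without their roles, per the submitters' processing notes. The strand setting and the annotation are not given in the sources used here. Reads in no gene (93.3% to 95.8% of counted reads) stayed out of library sizes and tests. Libraries were grouped by the genotype in their labels, and 0 columns were left unused.

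The main test was the quasi-likelihood F test of edgeR 4.0.16 (R 4.3.3), with genotype as the only term, TMM factors, a filterByExpr minimum count of 10 and Benjamini-Hochberg adjustment over 9180 genes. Standard errors are the log2 change divided by the root of F, and 95% intervals use the test's degrees of freedom, unadjusted. For Eda2r and Phlda3, with few wild type reads, these intervals were narrower than those from counting error alone, so their lower ends are not firm. Ratios of summed counts carry exact (Clopper-Pearson) 95% counting intervals, which cover counting error only. Gene positions and exon lengths came from GENCODE M21 on GRCm38 and promoters from RefSeq on GRCm38.p6. Since the notes name mm9, positions and promoters serve as annotation only, and exon lengths enter only the levels per kilobase. The test was tested on simulated counts.

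The members and lists were chosen with earlier results of these data known. All 10 members were named, with up to 4 called genes of each of 5 lists by smallest adjusted p, Trim24 and the 5 genes nearest in profile. Alternatives were DESeq2 1.42.0, limma-voom (limma 3.58.1), other scaling factors, other filters, leaving out each library, a replicate block, and KO2 as the only knockout library. Groups of 3 were not tested for outlying libraries. A gene of the lists is not reported here by name.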

Additional observations from a re-analysis of the deposited data

How the results depend on the processing

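The count of 3 members called higher was 3 or 4 in all 16 alternatives, the fourth being Trp53inp1, and none was called lower in any. Without a filter on low counts 576 genes were higher and 509 lower over all genes, against 283 and 243, and 1 arrest target, 2 other BCL2 family genes and 1 caspase gene were called lower. Keeping genes that reached 1 CPM in 3 libraries, Bax, Bbc3 and Pmaip1 could be fitted, at log2 fold changes of 0.75, -0.82 and 1.17 (edgeR adjusted p = 0.50, 0.63 and 0.62). DESeq2 called 0 other BCL2 family genes and 0 death receptor signalling genes higher, limma-voom called 0 other BCL2 family genes higher, and with KO2 as the only knockout library 0 other BCL2 family genes were higher and 0 p53 regulators lower. With each library left out in turn, 127 to 409 genes were higher and 95 to 363 lower, with 0 to 1 other BCL2 family genes higher and 0 to 2 lower, 0 to 1 death receptor signalling genes higher, and 0 to 1 p53 regulators higher and 0 to 1 lower. The log2 fold change of Fas ran from -0.42 to 0.062 with 1 library left out and reversed without WT3. That of Zmat3 ran from -0.12 to 0.32, and reversed without KO2 (-0.05), WT1 (-0.01) and WT3 (-0.12). Cela1 was at -0.12 with KO2 as the only knockout library. The cause of these shifts was not tested.

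Libraries of the same replicate number showed no shared deviation, since deviations from the group means correlated at -0.073, 0.079 and 0.035 for numbers 1, 2 and 3. Pairs of unlike numbers ran from -0.12 to 0.089. With 3 libraries per group this cannot show whether the libraries were paired in handling. With the replicate number as a block 295 genes were higher and 250 lower, 4 members were called, and Trp53inp1 was at 0.97 (edgeR adjusted p = 0.040). The low number of reads in genes limits Bax, Bbc3 and Pmaip1, which had at most 16 reads in any library.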
